A study of Danio rerio with 170 samples.

Results

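The genes described here are the ionocyte transport genes of the zebrafish embryo: slc12a10.2, TRPV6, ca15a, the Rh ammonia transporter genes named RHCG, and the fate factors foxi3a and foxi3b. They were taken by symbol, in any case, and the list of symbols was drawn up with earlier results of these data known. The count table of the 48 hpf (hours post fertilization) embryos held 8 of them among 27904 genes, since 3 Ensembl genes carry the name RHCG, and the table of the time course held 5 among 26992 genes. In the count table the RHCG genes are called here RHCG-003203 (ENSDARG00000003203), RHCG-100265 (ENSDARG00000100265) and RHCG-007080 (ENSDARG00000007080), because the annotation used does not say which of them is rhcga or rhcgb.

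Ionocytes are scattered cells of the embryonic skin that exchange salts, acid and ammonia with the water before gills work. In zebrafish, NCC ionocytes take up sodium and chloride through the cotransporter slc12a10.2, and calcium ionocytes take up calcium through the channel trpv6. Acid-secreting ionocytes pair a proton pump with the carbonic anhydrase ca15a and the ammonia channel rhcgb, while foxi3a and foxi3b are the forkhead factors that set the ionocyte fate among skin precursors. Markers of the pronephros (embryonic kidney), which also carries Rh and ion transport genes, were therefore counted beside those of the skin.

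Tropical 5D wild-type embryos were exposed to 1 of 15 PFAS (per- and polyfluoroalkyl substances) from 6 hpf to 48 hpf, with all exposures and both controls in 1% DMSO, and RNA came from pools of 10 whole embryos. In Round 1, PFAS 1, 5, 6 and 12 were given at 100 µM, PFAS 3 at 13.8 µM, PFAS 7 at 39.7 µM, PFAS 8 at 53 µM, PFAS 9 at 62 µM, PFAS 10 at 8 µM, PFAS 11 at 28 µM and PFAS 13 at 25 µM, each with 4 pools against the 6 pools of Control-A. In Round 2, PFAS 2 was given at 30 µM, PFAS 4 at 50 µM and PFAS 14 and 15 at 20 µM, each with 4 pools against the 4 pools of Control-B. In the time course, Nafion byproduct 2 (NB2, the compound of PFAS 2) at 73 µM was compared with the vehicle, Control-C, in pools of 8 whole embryos at 48, 72 and 96 hpf.

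Whole embryos were measured, so fewer ionocytes and less RNA per ionocyte cannot be told apart in any value below. Libraries read the 3′ ends of mRNA and held 14265378 to 30363275 counts (median 23474909.5). PFAS 5 replicate 1, which the study left out, was left out of the fit too. Round 1 was collected on 6 days and Round 2 on 1 day, so round and date cannot be told apart, and exposures were compared with the control of their own round only. Levels are CPM, counts scaled to the TMM-adjusted total of the library, and log2 fold changes are of the PFAS over its control from edgeR's quasi-likelihood test over 21928 genes and 69 libraries, called at a Benjamini-Hochberg adjusted p under 0.05. In Round 1 the 6 Control-A pools came from 6 collection days, so their spread includes that between days. Statements that pools lay apart from their control describe the pools. The share of all genes doing so is given only for lower ranges, over Round 1 and for PFAS 2. For Round 2 and the time course, no source used here says that pools were separate clutches, so the p-values there measure the spread between pools, which may be technical.

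Of the 8 genes, 7 passed the filter on low counts. RHCG-007080 did not, with 41 counts over 70 libraries and no count in 55 of them. Over the 11 exposures of Round 1, 9 of 77 gene-by-exposure comparisons were called (11.7%), 8 higher and 1 lower, against 6.4% over all genes, 3.12% higher and 3.28% lower. At an unadjusted p under the limit, 22 of the 77 passed. Over all 21928 genes, 844 (PFAS 5) to 5712 (PFAS 13) passed per exposure. DESeq2 called 10 of the 77, and 0 (PFAS 1) to 3715 (PFAS 13) of all genes per exposure. Over the 4 exposures of Round 2, 1 of 28 was called (3.57%), against 0.00114% over all genes. The symbols were chosen with earlier results of these data known, so the shares are a description and do not test for an excess of calls. The calls lay in slc12a10.2, TRPV6, ca15a and RHCG-003203, and foxi3a, foxi3b and RHCG-100265 had none in the same fit. DESeq2 called none of these 3 genes either, and gave no adjusted p for RHCG-100265 with PFAS 10 or PFAS 12. At an unadjusted p under the limit in edgeR, foxi3b had none of 15, foxi3a had 1 (PFAS 4) and RHCG-100265 had 3 (PFAS 10, 12 and 13).

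**Figure D1:**
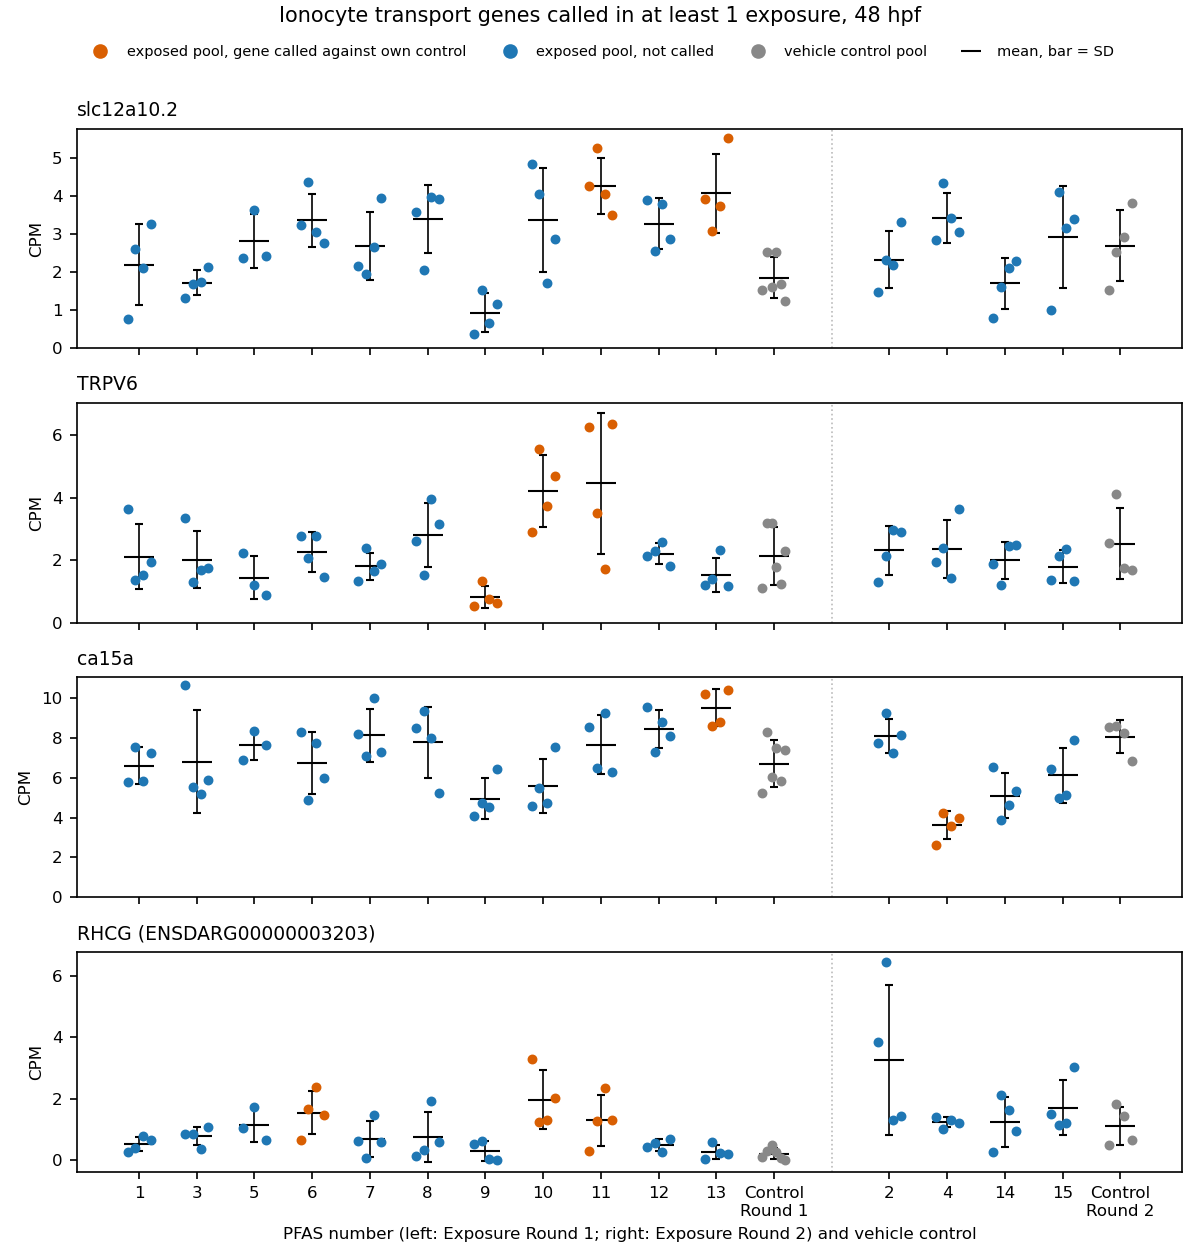
CPM of slc12a10.2, TRPV6, ca15a and RHCG-003203 in every 48 hpf pool (y axis, CPM) by exposure (x axis), with Round 1 and its control left of the dotted line and Round 2 and its control right of it. Orange points are exposures called against their own control, blue points those not called and grey points the controls, with the mean as a black dash and the SD as a bar. The slc12a10.2 pools of PFAS 11 and 13 and the ca15a pools of PFAS 4 lie clear of their controls, while the TRPV6 pools of PFAS 9, 10 and 11 overlap Control-A.

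The cotransporter slc12a10.2 was higher in 2 exposures, PFAS 11 (FHxSA, perfluorohexane sulfonamide) and PFAS 13 (a fluorinated diol). PFAS 11 pools had 4.26, 5.25, 4.05 and 3.48 CPM, against 1.26 at the lowest, 1.65 at the median and 2.52 at the highest in the 6 Control-A pools. All 4 PFAS 11 pools lay above every Control-A pool. The level averaged 4.26 ± 0.74 CPM in PFAS 11 embryos and 1.85 ± 0.54 CPM in Control-A embryos (SD), a log2 fold change of 1.20 ± 0.31 (SE; edgeR adjusted p = 0.00333). In PFAS 11 embryos 14.1% of all genes were called, 6.58% as higher.

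PFAS 13 pools had 3.93, 3.08, 3.72 and 5.50 CPM of slc12a10.2, again all above the Control-A range. The level averaged 4.06 ± 1.03 CPM in PFAS 13 embryos and 1.85 ± 0.54 CPM in Control-A embryos (SD), and the log2 fold change was 1.11 ± 0.31 (SE; edgeR adjusted p = 0.0065). In PFAS 13 embryos 16.2% of all genes were called. Without PFAS 13 replicate 4, the highest pool, the log2 fold change was 0.94 and the edgeR adjusted p was 0.0514.

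In PFAS 8, PFAS 10, PFAS 12 and PFAS 6 embryos slc12a10.2 had positive log2 fold changes that were not called. PFAS 8 pools had 2.07 to 3.97 CPM, with a mean of 3.38 CPM, and overlapped the Control-A pools. PFAS 10 (FOSA, perfluorooctane sulfonamide) pools had 4.83, 4.05, 1.72 and 2.87 CPM, with a log2 fold change of 0.85 ± 0.31 (SE; edgeR adjusted p = 0.0564). PFAS 12 pools had 3.89, 2.55, 3.77 and 2.87 CPM and PFAS 6 pools 3.24, 4.36, 3.04 and 2.77 CPM. Both groups lay above every Control-A pool, PFAS 12 only narrowly (lowest pool 2.55 CPM against 2.52 CPM at the highest in Control-A). This describes the pools only, and the share of all genes doing so is not given. Their log2 fold changes were 0.81 and 0.85 (edgeR adjusted p = 0.0706 and 0.691), and PFAS 12 was called when fitted with Control-A alone (edgeR adjusted p = 0.0426). The adjustment depends on how many genes pass, and 14.2% of all genes were called for PFAS 12 and 0.105% for PFAS 6.

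PFAS 9 (a tetrafluoropropyl acrylate) was the exposure with the lowest slc12a10.2 mean of the Round 1 groups. Its pools had 0.384, 1.54, 0.669 and 1.16 CPM, and 3 of the 4 lay below the lowest Control-A pool. The level averaged 0.939 ± 0.515 CPM in PFAS 9 embryos and 1.85 ± 0.54 CPM in Control-A embryos (SD), and the log2 fold change of −1.01 ± 0.35 (SE) was not called (edgeR adjusted p = 0.0656). It was called with collection day blocked (−1.06 ± 0.34, edgeR adjusted p = 0.0405) and by DESeq2 (adjusted p = 0.0407), and not when fitted with Control-A alone (edgeR adjusted p = 0.134). The log2 fold change was −1.82 on the flow cell of run 64 alone and −0.42 on that of run 66 alone (edgeR adjusted p = 0.0025 and 0.694). It was also called without Control-A replicate 6, PFAS 15 replicate 1 or PFAS 9 replicate 2 (edgeR adjusted p between 0.0254 and 0.0495). Over Round 1, slc12a10.2 lay above Control-A in 9 of 11 exposures by the sign of the fold change (−1.01 to 1.20), and over Round 2 above Control-B in 2 of 4 (−0.66 to 0.36). Such signs are not independent, since the exposures of a round share their control pools.

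The calcium channel gene TRPV6 went both ways. PFAS 9 pools had 0.545, 1.35, 0.758 and 0.643 CPM, against 1.11 at the lowest, 2.05 at the median and 3.2 at the highest in Control-A pools. Of the 4 PFAS 9 pools 3 lay below the Control-A range, and replicate 2 lay inside it. The level averaged 0.824 ± 0.362 CPM in PFAS 9 embryos and 2.14 ± 0.92 CPM in Control-A embryos (SD), a log2 fold change of −1.36 ± 0.37 (SE; edgeR adjusted p = 0.0129). In PFAS 9 embryos 6.9% of all genes were called, 3.84% as lower. Without PFAS 9 replicate 1, the lowest pool, the log2 fold change was −1.19 and the edgeR adjusted p was 0.075, and on run 64 alone they were −1.16 and 0.0608.

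TRPV6 was higher with the sulfonamides PFAS 10 and PFAS 11. PFAS 10 pools had 2.90, 5.58, 3.75 and 4.70 CPM, and 3 of the 4 lay above the highest Control-A pool. PFAS 11 pools had 6.26, 3.51, 1.71 and 6.37 CPM, with replicate 3 inside the Control-A range. The log2 fold changes were 0.98 ± 0.33 for PFAS 10 and 1.05 ± 0.33 for PFAS 11 (SE; edgeR adjusted p = 0.0331 and 0.0201), and 14.1% of all genes were called for PFAS 10. Neither was called once collection day was blocked (log2 fold changes 0.88 and 0.90, edgeR adjusted p = 0.0625 and 0.0546), nor on either flow cell alone (edgeR adjusted p between 0.0526 and 0.0976).

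Single libraries also ended the TRPV6 calls. The PFAS 10 call ended without Control-A replicate 1, 4 or 5 or PFAS 10 replicate 2 or 4, with edgeR adjusted p between 0.0625 and 0.133, and with PFAS 5 replicate 1 included (0.0518). The PFAS 11 call ended without Control-A replicate 1 or 5 or PFAS 11 replicate 1 or 4, with edgeR adjusted p between 0.0596 and 0.126. TRPV6 was not called in any of the other 8 exposures of Round 1 or in Round 2, where its log2 fold changes ran from −0.50 to −0.12.

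The carbonic anhydrase gene ca15a was the 1 gene that edgeR called for PFAS 4 (a perfluoroether carboxylic acid), 0.00456% of all genes tested, and 1 of the 3 that DESeq2 called. PFAS 4 pools had 2.64, 4.25, 3.60 and 3.96 CPM, against 8.56, 8.61, 8.23 and 6.86 CPM in Control-B pools. The highest PFAS 4 pool lay well below the lowest Control-B pool. The level averaged 3.61 ± 0.70 CPM in PFAS 4 embryos and 8.06 ± 0.82 CPM in Control-B embryos (SD), a log2 fold change of −1.16 ± 0.20 (SE; edgeR adjusted p = 0.0059).

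The ca15a call of PFAS 4 ended without PFAS 4 replicate 1 (log2 fold change −1.04, edgeR adjusted p = 0.0753) or without PFAS 4 replicate 3 (−1.16, adjusted p = 0.0519). It also ended when the 2 groups were fitted alone (edgeR adjusted p = 0.072), and on the counts of run 64 alone the log2 fold change was −0.98 (edgeR adjusted p = 0.407). The diacrylates PFAS 14 and PFAS 15 had lower ca15a values that were not called. PFAS 14 pools had 6.52, 3.87, 4.65 and 5.33 CPM, all below the Control-B pools, with a log2 fold change of −0.67 ± 0.20 (SE), and PFAS 15 had −0.41 ± 0.20. The summed pronephros markers of PFAS 4 pools were 219 to 248 CPM, against 213 to 236 CPM in Control-B pools.

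In Round 1, ca15a was higher with PFAS 13. PFAS 13 pools had 10.23, 8.63, 8.80 and 10.41 CPM, against 5.24 at the lowest, 6.71 at the median and 8.28 at the highest in Control-A pools, with no overlap. The level averaged 9.52 ± 0.93 CPM in PFAS 13 embryos and 6.72 ± 1.17 CPM in Control-A embryos (SD), a log2 fold change of 0.50 ± 0.18 (SE; edgeR adjusted p = 0.0414). The call ended without Control-A replicate 1, 3 or 5 or PFAS 13 replicate 1, 3 or 4, with edgeR adjusted p between 0.0515 and 0.12. It also ended on run 64 alone (0.182), on run 66 alone (0.0585) and without the added low-count filter (0.051). In the RefSeq annotation ca15a lies next to ca15c, a related gene, and how reads shared by close relatives were assigned was not tested.

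RHCG-003203, one of the genes for Rh ammonia channels, was called in 3 exposures, PFAS 6, PFAS 10 and PFAS 11, which are the 3 sulfonamides of the set. It was near the limit of detection in Control-A, with 0 to 11 counts a pool, 0 CPM at the lowest, 0.197 at the median and 0.489 at the highest. PFAS 10 pools had 3.30, 1.24, 1.31 and 2.01 CPM and lay above every Control-A pool. The level averaged 1.97 ± 0.96 CPM in PFAS 10 embryos and 0.210 ± 0.179 CPM in Control-A embryos (SD), a log2 fold change of 3.17 ± 0.64 (SE; edgeR adjusted p = 0.000122).

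PFAS 6 (EtFOSA, the N-ethyl form of FOSA) pools had 0.669, 1.68, 2.39 and 1.47 CPM of RHCG-003203, also above every Control-A pool. PFAS 11 pools had 0.298, 1.27, 2.34 and 1.31 CPM, with replicate 1 inside the Control-A range. The log2 fold changes were 2.84 ± 0.64 for PFAS 6 and 2.59 ± 0.64 for PFAS 11 (SE; edgeR adjusted p = 0.0329 and 0.00202). The calls of PFAS 10 and PFAS 11 were kept whichever library was left out, and also when collection day was blocked. The PFAS 6 call ended with that block (log2 fold change 2.56, edgeR adjusted p = 0.244). It also ended without Control-A replicate 1, 2, 5 or 6 or PFAS 6 replicate 2, 3 or 4, with edgeR adjusted p between 0.0516 and 0.229, and on run 64 alone (0.224), on run 66 alone (0.0545) and when fitted with Control-A alone (0.0701).

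The sulfonic acids had RHCG-003203 values on the same side that were not called. PFAS 5 (PFHpS, perfluoroheptane sulfonic acid) had 1.05, 1.74 and 0.674 CPM in its 3 pools, above every Control-A pool, with a log2 fold change of 2.42 ± 0.68 (SE; edgeR adjusted p = 0.356). PFAS 3 (PFOS) had a log2 fold change of 1.88 ± 0.65. PFAS 2 (NB2) pools had 3.83, 6.45, 1.31 and 1.45 CPM, the highest mean of the Round 2 groups. Control-B pools had 0.503, 1.83, 1.45 and 0.679 CPM, with overlap, and the log2 fold change was 1.54 ± 0.64 (SE). The log2 fold change of RHCG-003203 was positive in 11 of 11 exposures of Round 1 (0.34 to 3.17) and 4 of 4 of Round 2 (0.14 to 1.54). The Round 1 exposures share the 6 Control-A pools.

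The controls of both rounds also stood apart in RHCG-003203, with 1.12 ± 0.63 CPM in Control-B embryos and 0.210 ± 0.179 CPM in Control-A embryos (SD). The log2 difference, Control-B over Control-A, was 2.37 ± 0.64 (SE; edgeR adjusted p = 0.935), inside the range of the Round 1 fold changes. Summed pronephros markers were 238 to 254 CPM with PFAS 6, 230 to 291 CPM with PFAS 10 and 258 to 278 CPM with PFAS 11, against 210 to 244 CPM in Control-A pools. Of the 10 pronephros markers tested, 3 were called higher for PFAS 10 (7.26% over all genes) and 5 for PFAS 11 (6.58%), with none lower in either and none called for PFAS 6. Their part in the RHCG-003203 values was not tested.

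**Figure D2:**
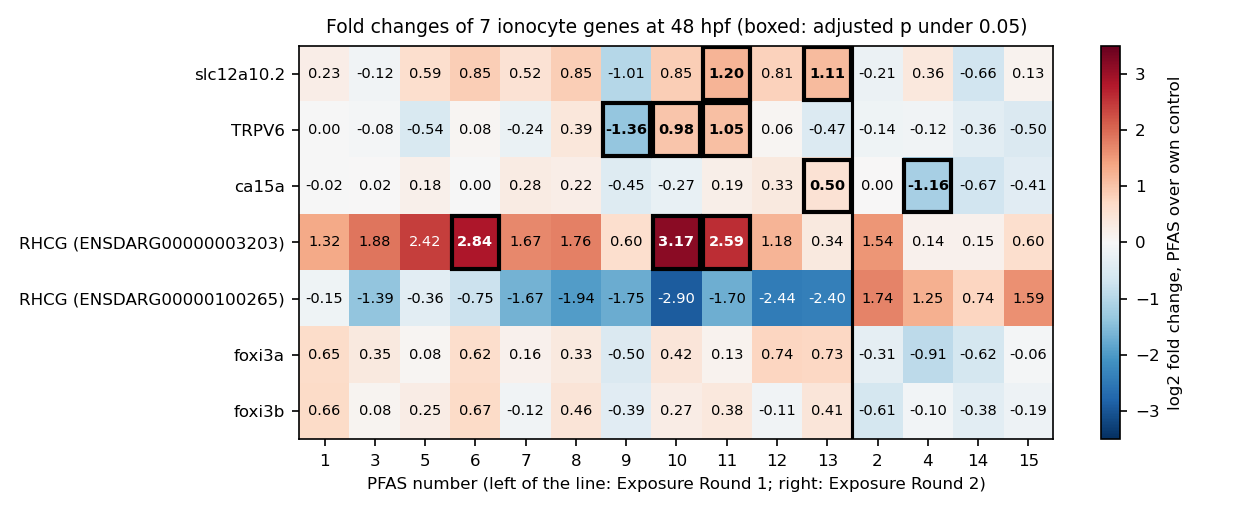
Log2 fold change of each of the 7 genes tested (rows) for the 15 exposures over their own control (columns, Round 1 left and Round 2 right), red for higher and blue for lower in the exposed embryos. Boxes mark the 10 comparisons called at an adjusted p under 0.05. RHCG-003203 is red in all 15 columns, and RHCG-100265 is blue in all 11 Round 1 columns and red in all 4 Round 2 columns.

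RHCG-100265 ran the other way in Round 1, though it was not called in any exposure. It had 405 counts over the 70 libraries, and Control-A pools had 0.408 at the lowest, 0.498 at the median and 0.719 CPM at the highest. PFAS 10 pools had 0.102, 0, 0 and 0.183 CPM, and the log2 fold change was −2.90 ± 1.24 (SE; edgeR adjusted p = 0.113). Every exposed pool lay below every Control-A pool in 7 of 11 exposures, PFAS 7 to PFAS 13, where 3.03% of all gene-by-exposure pairs of Round 1 did so. All 7 were compared with the same 6 Control-A pools. When each exposure was fitted with Control-A alone, PFAS 10, 12 and 13 were called (edgeR adjusted p = 0.0313, 0.0469 and 0.0371). In those fits the gene passed the low-count filter only through Control-A, with 9 to 18 counts a pool. The exposed pools had at most 3, 6 and 5 counts, so these calls add no separate evidence of a fall.

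In Round 2 RHCG-100265 lay above Control-B in 4 of 4 exposures, with log2 fold changes of 0.74 to 1.74 that were not called. Control-B pools had 0.201, 0.293, 0 and 0 CPM. The part of the control level in either set of fold changes was not tested. Control-B over Control-A gave a log2 difference of −1.93 ± 1.12 (SE). RHCG-007080, the copy that was not tested, had 0.254, 0.361, 0 and 0 CPM in PFAS 10 pools, against a single count in 1 of the 6 Control-A pools.

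**Figure D3:**
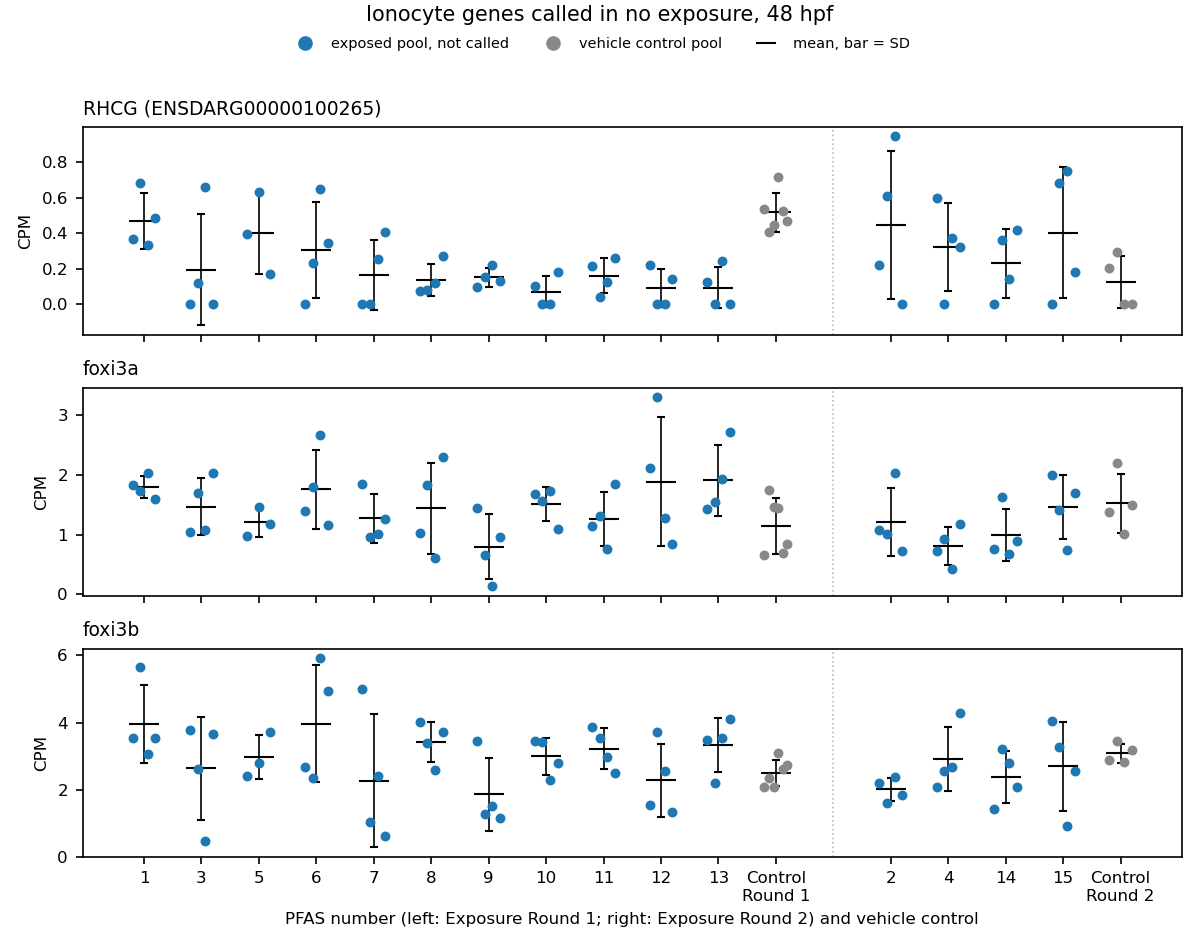
CPM (y axis) of RHCG-100265, foxi3a and foxi3b in every 48 hpf pool by exposure (x axis), drawn with each round's control at its right, points for pools, a black dash for the mean and a bar for the SD. The RHCG-100265 pools of PFAS 7 to PFAS 13 lie below the Control-A pools, and the foxi3a and foxi3b pools overlap their controls except foxi3b with PFAS 2.

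The fate factors foxi3a and foxi3b were not called in any of the 15 exposures. The log2 fold changes of foxi3a ran from −0.50 (PFAS 9) to 0.74 (PFAS 12) in Round 1, positive in 10 of 11, with a smallest edgeR adjusted p of 0.216. PFAS 12 embryos averaged 1.88 ± 1.08 CPM of foxi3a and Control-A embryos 1.14 ± 0.47 CPM (SD), and the ranges overlapped. In Round 2 foxi3a was negative in 4 of 4 (−0.91 to −0.06), with the largest difference for PFAS 4 at −0.91 ± 0.44 (SE; edgeR adjusted p = 0.838). The exposures of a round share their control pools, so these signs are not independent.

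For foxi3b the log2 fold changes ran from −0.39 (PFAS 9) to 0.67 (PFAS 6) in Round 1 and from −0.61 (PFAS 2) to −0.10 (PFAS 4) in Round 2. PFAS 2 pools had 2.20, 1.61, 2.36 and 1.85 CPM, against 2.89, 3.44, 2.82 and 3.19 CPM in Control-B pools. All 4 PFAS 2 pools lay below the Control-B range, as 1.38% of all genes did, and the log2 fold change of −0.61 ± 0.40 (SE) was not called (edgeR adjusted p = 1). Among the Round 1 groups, PFAS 9 had the lowest mean of foxi3a, foxi3b, slc12a10.2, TRPV6 and ca15a. The ca15a level averaged 4.96 ± 1.02 CPM in PFAS 9 embryos and 6.72 ± 1.17 CPM in Control-A embryos (SD), a difference that was not called. For each of the 7 genes tested, all 16 pairs of groups next to each other in the order of means overlapped.

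A joint test asked whether the 11 exposures of Round 1 shared 1 level, without the controls. It called 4 of the 7 genes, where 32.9% of all genes were called. TRPV6 had an edgeR adjusted p of 9.24e-06, slc12a10.2 of 5.5e-05, ca15a of 0.00316 and RHCG-003203 of 0.0051. The other 3 were not called (foxi3b 0.329, foxi3a 0.387 and RHCG-100265 0.589), and without PFAS 7 replicate 1 foxi3b reached an adjusted p of 0.0378. On run 64 alone RHCG-003203 was not called (0.125). The exposures had different doses, so the test does not set one compound against another.

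Equal doses were given in 7 pairs of compounds, PFAS 14 with 15 at 20 µM and the 6 pairs of PFAS 1, 5, 6 and 12 at 100 µM. None of the 49 gene-by-pair comparisons was called by edgeR (4.39% over all genes) or by DESeq2, and 3 had an unadjusted p under the limit. Over all 21928 genes, 582 (PFAS 14 with 15) to 5099 (PFAS 12 with 1) had such a p per pair. PFAS 6, an N-ethyl sulfonamide, had an RHCG-003203 level that differed from PFAS 5, a sulfonic acid, by 0.42 ± 0.70 on the log2 scale (SE; 95% interval −0.97 to 1.81), and from PFAS 1, a chlorinated carboxylic acid, by 1.51 (95% interval 0.17 to 2.86). PFAS 12 differed from PFAS 6 by −1.65 (95% interval −3.02 to −0.29), with an edgeR p adjusted over the 7 pairs of 0.0973, the smallest for that gene.

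The diacrylates PFAS 14 and PFAS 15 differ by a single CF2 unit. PFAS 14 over PFAS 15 gave a log2 difference of −0.79 for slc12a10.2 (95% interval −1.50 to −0.08; edgeR p adjusted over the 7 pairs = 0.209). Over the 7 pairs the differences of ca15a ran from −0.26 to 0.36 with intervals between −0.66 and 0.75, and those of TRPV6 from −0.53 to 0.62 with intervals between −1.36 and 1.45. RHCG-100265 was the least determined, with intervals between −4.77 and 2.22, so differences of several-fold could not be detected at its depth.

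The genes whose 15 log2 fold changes were most like each member's are given as a description, since the exposures of a round share their controls. For slc12a10.2 they were atp1a1a.3, a sodium pump alpha subunit (Pearson r = 0.94), ATP1B1 (ENSDARG00000076833), a sodium pump beta subunit (r = 0.92), and KCNJ1 (ENSDARG00000090866), an inward rectifier potassium channel (r = 0.91). For TRPV6 they were cracdlb (0.91), ADAM12 (0.89) and actb2 (0.86), and for ca15a hspb9l (0.87), crtc2 (0.86) and SERP1 (0.85). RHCG-003203 was most like ABLIM3 (0.86), ramp2 (0.86) and dio3b (0.85), and RHCG-100265 most like OCRL (0.91), MAP3K7 (0.91) and ZBTB41 (0.90). For foxi3a the likest were rabep2 (0.88), hoxa9b (0.85) and PLBD2 (0.85), and for foxi3b actn4 (0.85), PHF12 (0.84) and ifngr1 (0.83).

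Among the members themselves, over the same 15 exposures, the highest correlations were those of ca15a with foxi3a (r = 0.80), slc12a10.2 with foxi3b (0.70), foxi3a with foxi3b (0.69) and slc12a10.2 with TRPV6 (0.66). RHCG-100265 was negatively correlated with each of the other 6 genes (r = −0.62 to −0.30). These correlations, and those with the likest genes, run over both rounds, which have different controls. Control-B over Control-A gave a log2 difference of −1.93 for RHCG-100265 and 0.26 to 2.37 for the other 6 genes, none of them called. The part of this difference between controls in the correlations was not tested.

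**Figure D4:**
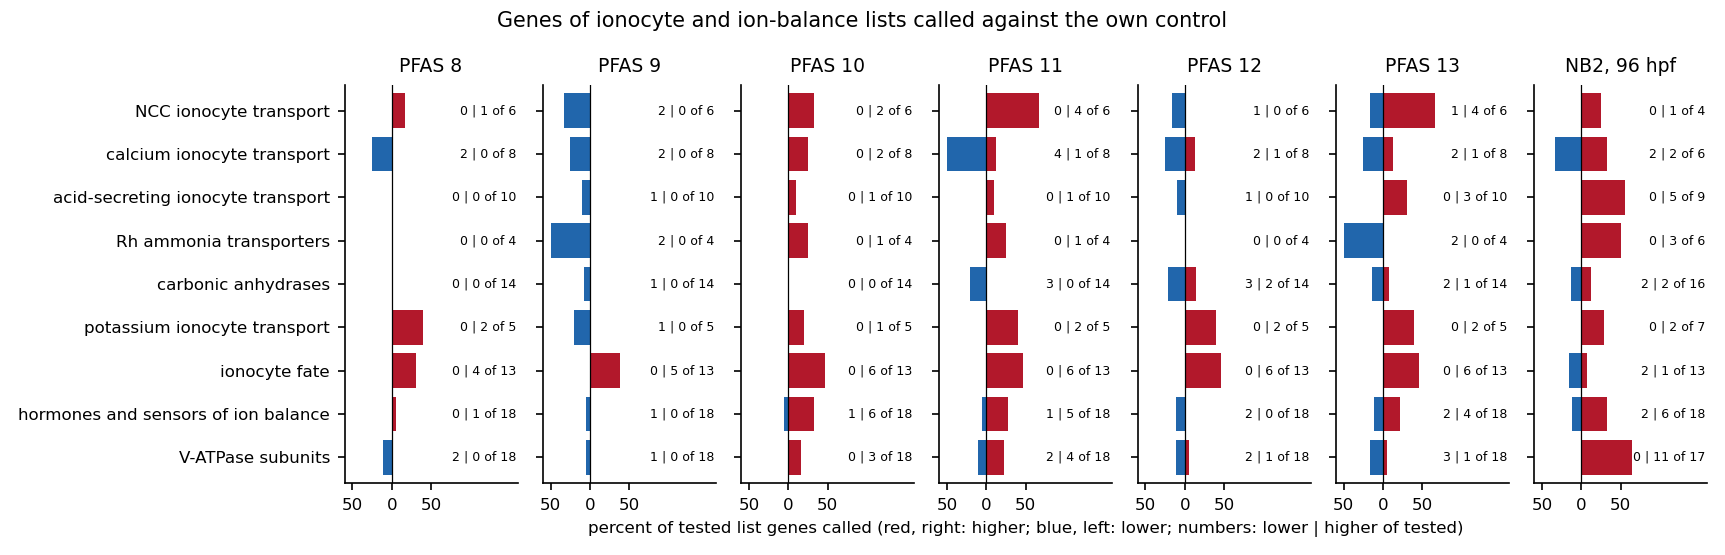
Percent of the tested genes of 9 ion transport and ion balance lists (rows) called for PFAS 8 to 13 at 48 hpf and for NB2 at 96 hpf (columns), with red to the right for higher and blue to the left for lower in the exposed embryos. The pair of numbers in each cell gives genes lower and higher of those tested. The NCC list has 4 of 6 genes higher for PFAS 11 and PFAS 13, and the V-ATPase list 11 of 17 higher for NB2 at 96 hpf.

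The genes of each ionocyte type were followed through lists chosen with the members. Members belong to these lists, so list counts and medians partly repeat the calls given above. Over all genes, PFAS 8 had 2.1% higher and 1.74% lower, PFAS 9 had 3.06% higher and 3.84% lower, and PFAS 10 had 7.26% higher and 6.83% lower. The same shares were 6.58% higher and 7.52% lower with PFAS 11, 6.77% higher and 7.47% lower with PFAS 12, and 7.63% higher and 8.52% lower with PFAS 13. A listed symbol absent from the count table was matched to every gene with its capital name, without copy letter or number. The NCC list thus held 7 genes for 6 symbols, both SLC4A4 copies included, the calcium list 8 for 6 and the pronephros list 11 for 8. Which copy belongs to which cell type was not resolved. Of the 6 NCC list genes tested, PFAS 11 had 4 higher and none lower (median log2 0.79, against −0.01 over all genes). PFAS 13 had 4 higher and 1 lower (0.92, against −0.02). Beside slc12a10.2, its relative of the same family, slc12a10.3, was higher, with log2 fold changes of 1.61 for PFAS 11 and 1.51 for PFAS 13 (edgeR adjusted p = 0.0327 and 0.0446). The bicarbonate cotransporter gene SLC4A4 (ENSDARG00000013730) was lower for PFAS 13 at −0.52, while the other SLC4A4 copy (ENSDARG00000044808) was higher for PFAS 10 at 1.04, PFAS 11 at 0.81 and PFAS 13 at 0.63. PFAS 9 had 2 of 6 lower and none higher (median log2 −0.56, against −0.01), the sodium pump subunit gene atp1a1a.2 at −0.62 and SLC4A4 (ENSDARG00000013730) at −0.49.

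In the calcium list of 8 genes, PFAS 10 had 2 higher and none lower, TRPV6 included. PFAS 11 had 1 higher and 4 lower, PFAS 12 and PFAS 13 had 1 higher and 2 lower each, and the 2 called for PFAS 9 were both lower. The calcium pump gene atp2b2 was lower for PFAS 8 (−0.59), PFAS 9 (−0.66), PFAS 11 (−0.79), PFAS 12 (−0.99) and PFAS 13 (−0.83), and the sodium-calcium exchanger SLC8A1 (ENSDARG00000043406) for PFAS 11 (−0.91) and PFAS 12 (−0.68). The genes atp2b2 and SLC8A1 are also used by nerve and muscle, whose share of these values was not tested.

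In the acid-secreting list of 10 genes, PFAS 13 had 3 higher and none lower (median log2 0.48, against −0.02). They were ca15a, the sodium pump subunit gene atp1a1a.5 at 1.57 and the adhesion gene ceacam1 at 0.85. Of the 4 Rh genes tested, RHBG fell by 0.72 and RHAG by 0.39 on the log2 scale for PFAS 9. RHAG is the Rh protein of red cells, and summed erythroid markers were 1209 to 2513 CPM with PFAS 9, against 2004 to 4745 CPM in Control-A pools, with 5 of 7 markers lower. Their part in the RHAG value was not tested. For PFAS 13 the same 2 Rh genes fell by 0.31 (RHBG) and 0.38 (RHAG).

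Of the 5 potassium ionocyte genes tested, 2 were called higher and none lower for PFAS 8, 11, 12 and 13 each, 1 was higher for PFAS 10, and 1 was lower for PFAS 9. KCNJ1 (ENSDARG00000090866) was called higher for PFAS 8 (log2 fold change 1.04), PFAS 11 (1.16), PFAS 12 (0.85) and PFAS 13 (1.43), and the sodium pump subunit gene atp1a1a.4 for the same 4 and PFAS 10 (0.83), while atp1a1a.4 fell by 0.43 for PFAS 9. Of the 14 carbonic anhydrase genes, PFAS 11 had 3 lower, CA7 at −2.12, ca4a at −2.06 and CA10 at −0.88. Of the 13 fate genes, 4 were higher for PFAS 8, 5 for PFAS 9 and 6 each for PFAS 10 to PFAS 13, with none lower. They included the receptor gene NOTCH1 (ENSDARG00000103554), which also acts in the nervous system, at 0.74 to 1.01 for PFAS 8 to PFAS 11 and PFAS 13.

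Among 18 hormone and sensor genes, PFAS 10 had 6 higher and 1 lower (median log2 0.77, against −0.02) and PFAS 11 had 5 higher and 1 lower (0.33). The vitamin D degrading enzyme gene CYP24A1 was higher for PFAS 10 (2.60), PFAS 11 (2.22) and PFAS 13 (2.07). TRPV6 was called higher for PFAS 10 and PFAS 11. For PFAS 13 TRPV6 was not called and averaged 1.54 CPM, against 2.14 CPM in Control-A pools. A link between the 2 genes was not tested. The gene prl, for prolactin, the freshwater-adapting hormone of fish, was higher for PFAS 8 (1.95), PFAS 10 (1.69), PFAS 11 (2.19) and PFAS 13 (2.25), and oxt, the fish oxytocin gene, was lower for PFAS 10 (−1.60), PFAS 11 (−1.81) and PFAS 13 (−3.25). STC1 (ENSDARG00000058476), for the calcium-lowering hormone stanniocalcin, was lower for PFAS 9 (−0.89) and PFAS 12 (−0.87).

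Markers of other cells of the whole embryo moved with some of these exposures. Summed keratinocyte markers, from the skin in which ionocytes lie, were 8683 to 10820 CPM with PFAS 9, 9894 to 11312 CPM with PFAS 11, 9944 to 13509 CPM with PFAS 13 and 11175 to 14400 CPM with PFAS 12, against 9177 to 10590 CPM in Control-A pools. Of the 9, 2 were lower for PFAS 9, 3 higher and 1 lower for PFAS 11, 2 higher and 2 lower for PFAS 13, and 5 higher for PFAS 12, whose pools all lay above the Control-A pools. Summed mucous cell markers were 27.5 to 34.5 CPM with PFAS 9 and 31.7 to 36.8 CPM with PFAS 10, against 46.03 to 60.7 CPM in Control-A pools, with 2 of 4 lower in each. With PFAS 12 they were 66.9 to 81.6 CPM, above those pools, with 1 of 4 called higher, and summed pronephros markers were 242 to 265 CPM, with 1 of 10 higher and 1 lower. For PFAS 13, 4 of 10 pronephros markers were higher and 1 lower. The kidney cotransporter gene SLC12A1 was at 0 in Control-A, and also in PFAS 2, PFAS 3 and PFAS 15 pools. The part of these cells in the slc12a10.2, TRPV6, ca15a and list gene values was not tested.

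The NB2 time course followed later the compound of PFAS 2, for which no gene was called at 48 hpf by edgeR or DESeq2 and 905 had an unadjusted p under the limit. Its values are log2 values that the authors stabilized for variance, compared with limma over 24853 genes, and differences are NB2 minus vehicle. It held rhcga, rhcgb, trpv6, ca15a and foxi3a, and slc12a10.2 and foxi3b were not analysed there. At 48 hpf none of the 5 genes was called by limma, none had an unadjusted p under the limit, and 0 of all genes were called (0.0%), with 1195 at an unadjusted p under the limit.

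At 72 hpf rhcga was higher, where 0.728% of all genes were called. NB2 pools had log2 values of 7.20, 7.30, 5.93, 8.01 and 5.78, against 4.20, 4.91, 4.92, 4.19 and 4.22 in vehicle pools, with no overlap. The difference was 2.35 ± 0.28 (SE; limma adjusted p = 2.65e-06). When only the columns of those 2 groups were fitted, the limma adjusted p was 0.0675. The difference of rhcgb at 72 hpf was 0.45 and that of trpv6 0.28, and neither was called (limma adjusted p = 0.308 and 0.518).

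At 96 hpf 3 of the 5 genes were higher, rhcga, rhcgb and trpv6, where 18.4% of all genes were called, 8.22% as higher. The study, using DESeq2, reported fewer genes called at 96 hpf than the 4568 of limma here. The log2 values of rhcgb were 8.96, 8.21, 8.36, 8.48 and 8.56 in NB2 pools, against 6.26, 6.70, 6.68, 6.55 and 6.93 in vehicle pools, a difference of 1.89 ± 0.20 (SE; limma adjusted p = 2.64e-09). The log2 values of rhcga were 9.42, 9.43, 9.46, 9.12 and 9.02 in NB2 pools, against 7.82, 7.04, 7.94, 7.31 and 7.36 in vehicle pools, a difference of 1.80 ± 0.28 (SE; limma adjusted p = 7.34e-06). Neither gene's groups overlapped.

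The calcium channel gene trpv6 had log2 values of 6.75, 6.64, 6.58, 6.71 and 6.30 in NB2 pools at 96 hpf, against 5.75, 5.97, 5.92, 5.87 and 5.24 in vehicle pools, again with no overlap. The difference was 0.85 ± 0.18 (SE; limma adjusted p = 0.000399). The differences of ca15a (0.12 ± 0.15) and foxi3a (0.30 ± 0.19) were not called (SE; limma adjusted p = 0.686 and 0.307).

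**Figure D5:**
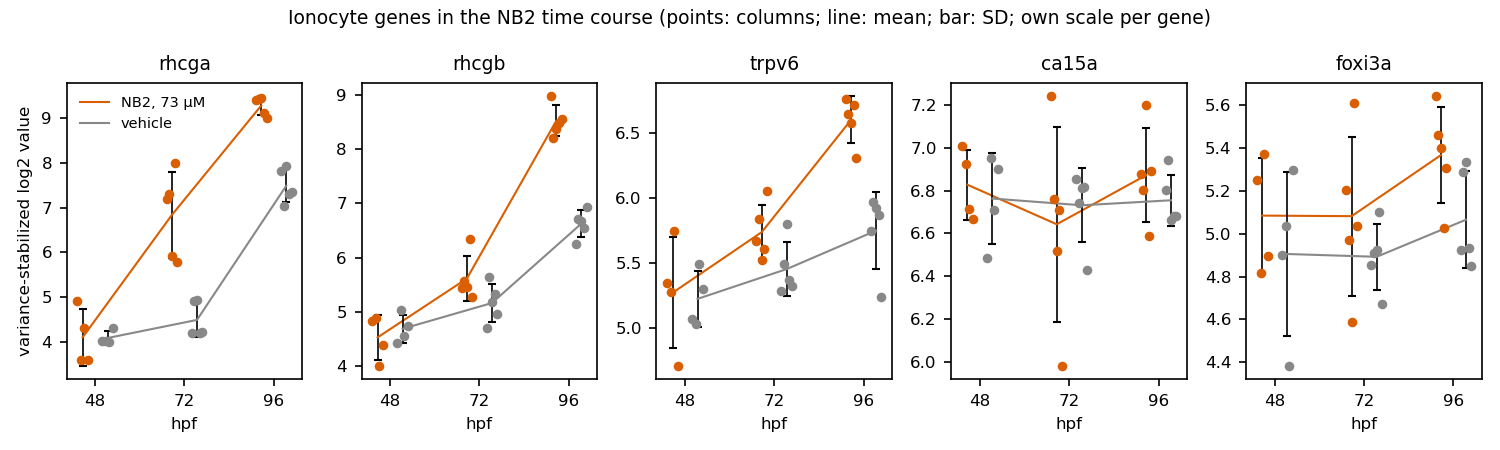
Variance-stabilized log2 values (y axis) of rhcga, rhcgb, trpv6, ca15a and foxi3a in every pool at 48, 72 and 96 hpf (x axis), NB2 in orange left of the vehicle in grey, with means and SD bars. The rhcga groups lie apart at 72 and 96 hpf and the rhcgb and trpv6 groups at 96 hpf, while ca15a and foxi3a overlap at each time.

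Whether the NB2 effect differed between times was tested directly. For rhcgb the effect at 96 hpf exceeded that at 48 hpf by 2.05 ± 0.30 (limma adjusted p = 7.14e-06) and that at 72 hpf by 1.44 ± 0.28 (limma adjusted p = 0.000528), where 7.25% and 12.2% of all genes were called. For rhcga the effect at 72 hpf exceeded that at 48 hpf by 2.34 ± 0.43 (SE; limma adjusted p = 0.0144), where 0.197% of all genes were called, and that at 96 hpf did so by 1.78 (limma adjusted p = 0.00505). The difference between 72 and 48 hpf was not called without NB2 at 48 hpf column B (2.17, limma adjusted p = 0.0639), without the mean trend (limma adjusted p = 0.0726) or with only the columns compared (limma adjusted p = 0.088).

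At 48 hpf rhcga had log2 values of 4.90, 3.59, 4.32 and 3.59 in NB2 pools, against 4.02, 4.02, 3.99 and 4.30 in vehicle pools, and 3.59 is the lowest value of the table. The trpv6 effect at 96 hpf exceeded that at 48 hpf by 0.80 ± 0.26 (SE; limma adjusted p = 0.0566), which was called without NB2 at 48 hpf column D (adjusted p = 0.0187) or NB2 at 96 hpf column E (adjusted p = 0.0419), and without the mean trend (limma adjusted p = 0.046).

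In vehicle pools the Rh genes rose with age between 72 and 96 hpf, rhcga by 3.00 (limma adjusted p = 1.64e-10) and rhcgb by 1.46 (limma adjusted p = 6.58e-07), where 17.6% of all genes were called. Between 48 and 72 hpf none of the 5 was called (25.6% over all genes). At an unadjusted p under the limit 1 passed, rhcgb at 0.47, as did 8573 of all genes. The rhcgb rise was called without the 72 hpf vehicle column A (limma adjusted p = 0.0473). The vehicle pools at 96 hpf had rhcga levels of 7.04 to 7.94. Of the 5 NB2 pools at 72 hpf, those at 7.20 and 7.30 lay within that range, 8.01 above it, and 5.93 and 5.78 below it.

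Some other genes of acid and ammonia transport were higher with NB2 at 96 hpf, in lists that also hold members. Over all 24853 genes, 2044 were called higher at that time (8.22%) and 2524 lower. The Rh list had 3 of 6 genes higher and none lower (median log2 0.95, against −0.02 over all genes), with rhcgl1 at 1.65 beside rhcga and rhcgb. The acid-secreting list had 5 of 9 higher and none lower (0.42), among them atp1a1a.5 at 0.68 and ceacam1 at 0.52, and the V-ATPase list, the subunits of the proton pump, had 11 of 17 higher and none lower (0.35). The calcium list had trpv6 and the sodium pump subunit gene atp1a1a.1 (0.49) higher and slc8a1b (−0.34) and igfbp5b (−0.23) lower of 6. In the NCC list 1 of 4 was higher, the chloride channel gene clcn2c at 0.62. The carbonic anhydrase list averaged log2 values of 6.49 to 6.67 in NB2 pools and 6.51 to 6.61 in vehicle pools. Which cells of the whole embryo the V-ATPase values came from was not tested.

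Of 18 hormone and sensor genes, 6 were higher and 2 lower with NB2 at 96 hpf, with cyp24a1 at 2.50, and the parathyroid hormone genes pth1a at 1.77 and pth2 at 1.63 on the log2 scale. The vitamin D activating enzyme gene cyp27b1 fell by 0.72. Keratinocyte markers averaged log2 values of 8.68 to 8.96 in NB2 pools and 9.06 to 9.15 in vehicle pools at 96 hpf, with 1 of 9 higher and 4 lower. Pronephros markers averaged 7.11 to 7.47 in NB2 pools and 7.01 to 7.21 in vehicle pools, with none of 8 higher and 1 lower. Mucous cell markers averaged 6.39 to 6.71 in NB2 pools and 6.68 to 6.90 in vehicle pools, with none of 4 called. Their part in the ionocyte gene values was not tested.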

How the data were processed

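The authors made 3′ mRNA libraries (QuantSeq), aligned reads with STAR to GRCz11, counted them by strand with HTSeq and deposited raw counts of 2 flow cells a library after removing the lowest 35th percentile of genes. The counts of both flow cells were summed here. For the time course the authors deposited variance-stabilized log2 values, with 28 columns. Their tables of differential expression hold fold changes and p-values and were not used. The counts were tested with edgeR 4.0.16 (TMM, filterByExpr with a minimum count of 10, 1 fit of 17 groups), the log2 values with limma 3.58.1 (mean trend, 6 groups, genes above the lowest value in at least 4 columns), in R 4.3.3. DESeq2 1.42.0 was an alternative. Each member that passed the filter was tested in every comparison, though not every value is given here. Of each list at most the 3 largest called rises and falls per exposure were named. The 3 likest genes per member were taken from genes with a mean log2 CPM over 1. The members and the 13 lists were chosen with earlier results of these data known. Symbols matched 25504 of 27904 genes. On simulated counts the edgeR step found 67.2% of genes changed 2-fold for PFAS 10 against Control-A (21011 genes). For PFAS 4 against Control-B it found 52.2% (20763 genes). Changes were simulated only above a minimum control level, which RHCG-003203 in Control-A did not reach. Collection days, from the study's sampling record, were checked for pairing: deviations of same-day pools correlated at 0.043, and other pools at −0.0098, over 10605 genes. Sequences were not used here.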

Additional observations from a re-analysis of the deposited data

Results flagged for a closer look

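In 5 of 142 groups of 4 to 10 samples a single pool lay far from the rest, and chance gives about 5% of groups. The level of ca15a was 10.6 CPM in PFAS 3 replicate 1, against 5.17 to 5.90 CPM in the other 3 pools, and foxi3b was 3.46 CPM in PFAS 9 replicate 1, against 1.16 to 1.52 CPM in the others. In the time course rhcgb was 6.34 in NB2 column D at 72 hpf (others 5.27 to 5.57), ca15a 6.43 in vehicle column E at 72 hpf (others 6.74 to 6.85) and rhcga 4.30 in vehicle column E at 48 hpf (others 3.99 to 4.02), on the log2 scale.

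The NB2 effect differed between times in 4 tests of the difference by limma. They were rhcga at 72 over 48 hpf (2.34, not called without the mean trend or with only the columns compared) and at 96 over 48 hpf (1.78), and rhcgb at 96 over 48 hpf (2.05) and at 96 over 72 hpf (1.44).

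PFAS 5 replicate 1, the library left out, had 0.579 CPM of RHCG-003203, above the 0 to 0.489 CPM of Control-A pools, and 4.84 CPM of TRPV6, above their 1.11 to 3.2 CPM.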

How the results depend on the processing

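The count of 9 gene-by-exposure calls in Round 1 became 5 on the flow cell of run 64 alone and 5 on that of run 66 alone. It was 5 to 11 when 1 library was left out, with 5 without Control-A replicate 1 or without Control-A replicate 5. The 1 call of Round 2 became 0 on run 64 alone and 0 with only the libraries compared, and 0 to 1 when 1 library was left out, ended by PFAS 4 replicate 1 or 3. The cause was not tested. With other scaling, filter, tool or samples the Round 1 count was 8 to 12, with 10 by DESeq2. The replicate block by number gave 6 calls in Round 1 and 1 in Round 2, and the block by collection day gave 7 in Round 1. Same-numbered pools correlated at 0.0454 in Round 1 and 0.0494 in Round 2, and other pools at −0.0136 and −0.0162. Columns of the same letter in the time course correlated at 0.0057, and other columns at −0.0016. No limit for pairing was set, and the main fits used no block. With the block by letter the 4 NB2 calls, the 4 between times and the 2 in vehicle kept their counts, and they were 4 to 4, 3 to 5 and 2 to 3 with 1 column left out. The joint count of 4 was 4 to 5 with 1 library left out and 3 on run 64 alone, and the equal-dose count was 0 under each setting. Called list genes (167 at 48 hpf and 42 with NB2) were 130 to 175 and 38 to 46 in a recount added after seeing the data, and 150 to 171 and 35 to 50 with 1 library or column left out. Over the alternatives and the leave-one-out fits together, 1941 values of single genes kept their call, 52 lost one and 23 gained one. None reversed, though the joint test has no direction that could reverse. Many leave-one-out fits dropped a library of neither group compared, so these counts say little about how stable the calls were. At 48 hpf the leave-one-out fits also held the genes and dispersion trend of the full fit, so they were not full refits. The day block could not be fitted for PFAS 14 against 15, which share 1 day. The promoter description was not run, since no promoter sequences were used here. RHCG-003203 and RHCG-100265 had medians of 16.5 and 4 counts a library, which limits what their values can show.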
